A study of Mus musculus with 12 samples.

Results

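The 10 genes described here encode enzymes of serine synthesis, of serine and glycine interconversion and of the folate one-carbon cycle: Phgdh, Psat1, Psph, Shmt1, Shmt2, Mthfd1, Mthfd2, Mthfd1l, Gldc and Gcat. The rule is a list of symbols with no threshold on their values, and all 10 were found among the 24098 genes of the expression table. The data were messenger RNA levels in 12 libraries, 1 library for each of 12 conditions, of mouse embryonic fibroblasts (MEFs) reprogrammed towards pluripotency and of pluripotent reference cells. The MEFs came from E13.5 embryos that carried an IRES-EGFP cassette behind the Oct4 stop codon, and every reprogramming library came from such MEFs infected, in polybrene, with pMXs retroviruses for Oct4, Sox2, Klf4 and c-Myc (OSKM). D0 was uninfected MEFs and D3 was unsorted cells 3 days after OSKM. On days 6 and 9 the cells were sorted on Thy-1, a fibroblast surface protein, into D6T-, D6T+, D9T- and D9T+. On days 12 and 16 the sort was on SSEA-1, a carbohydrate that pluripotent cells carry at their surface, into D12S+, D12S-, D16S+ and D16S-. The study used these markers to part cells on a successful route (Thy-1-, then SSEA-1+) from cells on an unsuccessful one (Thy-1+, then SSEA-1-). The last pair of libraries came from fully reprogrammed cells (iPSCs) and from the ES-D3 line of mouse embryonic stem cells (mESCs).

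MEFs grew in DMEM with 10% fetal bovine serum. By the labels, reprogramming cells, iPSCs and mESCs grew in FF medium, which is DMEM/F12 with knockout serum replacement, MEM non-essential amino acids, LIF, ascorbic acid, bFGF, CHIR99021 and N-2 supplement. The study's methods also name media with serum or serum replacement for reprogramming, and only such media for iPSCs and mESCs, each with the same amino acid mix. The non-essential amino acid mix holds serine and glycine, the metabolites that these enzymes make and use. The serine and glycine of the base media, DMEM and DMEM/F12, were not compared here. In every comparison with D0, the effect of the medium and the effect of OSKM cannot be told apart. By the labels, sorted fractions of 1 day shared their medium.

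Serine is made from a glycolytic intermediate by PHGDH, PSAT1 and PSPH in turn. SHMT1 in the cytosol and SHMT2 in mitochondria move a carbon from serine to tetrahydrofolate and leave glycine. The folate-bound carbon is then oxidised or reduced by MTHFD1 in the cytosol and by MTHFD2 in mitochondria, where MTHFD1L releases it as formate. The carbon serves the synthesis of purines, thymidylate and methionine. Mitochondria can also take the carbon from glycine itself, through the glycine cleavage system whose decarboxylase is GLDC. GCAT makes glycine and acetyl-CoA from the product of threonine dehydrogenase (TDH), and mouse pluripotent cells are known for their use of threonine by this route.

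The sequences below are the 150 bases before the start sites of Gldc, Shmt1, Mthfd1 and Gcat, the 4 members that were past 2-fold both in D16S+ against D16S- and in D16S+ against D0. They were chosen after their values were seen and are shown 5′ to 3′ on the strand of the gene, with each CG dinucleotide in capitals. They come from the RefSeq promoter table of build GRCm38.p6. Each window was found at exactly 1 place in mm9, the build of the expression values, and the positions are those in mm9. The start sites are those of the promoter table. For Shmt1, the GENCODE M1 annotation used below starts further upstream, at 60625220, so the printed stretch lies inside the gene there. The Shmt1 locus given with the deposited values ends at 60624767, next to the stretch.
Gldc, minus strand, chr19:30249932-30250081: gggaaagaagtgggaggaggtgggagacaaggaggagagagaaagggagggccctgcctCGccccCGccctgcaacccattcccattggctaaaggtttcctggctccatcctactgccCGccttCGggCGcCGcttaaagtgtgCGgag
Shmt1, minus strand, chr11:60624768-60624917: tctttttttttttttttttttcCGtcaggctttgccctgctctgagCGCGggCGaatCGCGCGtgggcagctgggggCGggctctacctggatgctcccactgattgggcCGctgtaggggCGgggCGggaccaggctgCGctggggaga
Mthfd1, plus strand, chr12:77356069-77356218: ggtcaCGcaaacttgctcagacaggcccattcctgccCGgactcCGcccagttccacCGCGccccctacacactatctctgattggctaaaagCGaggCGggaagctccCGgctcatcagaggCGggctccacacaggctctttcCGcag
Gcat, plus strand, chr15:78861154-78861303: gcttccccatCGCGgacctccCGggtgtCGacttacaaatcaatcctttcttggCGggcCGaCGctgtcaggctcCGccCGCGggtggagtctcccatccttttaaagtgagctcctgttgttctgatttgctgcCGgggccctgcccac

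The full 300-base windows, from 250 bases before the start to 50 after it, held 10 CG dinucleotides at Gldc, 17 at Shmt1, 16 at Mthfd1 and 21 at Gcat. The median over all 32851 windows of the table was 7. The other members held 11 at Phgdh, 20 and 30 at the starts of Psat1, 28 at Psph, 13 at Shmt2, 15 at Mthfd2 and 8 at Mthfd1l. A count above the median was therefore not particular to the printed genes. The 10 members had 11 windows, since Psat1 had an alternative start, and a search of both strands covered 3 motifs in them. The window of Mthfd1l had 0 exact matches in mm9 and lies on the other strand than the gene does in the annotation, so its match to this gene is uncertain. CACGTG, the E-box to which MYC binds, was in 1 of the 11 windows and in 7.15% of all windows. It lay at Gcat, with its first base at position 3, counted from 1 at the start site, and is shown in capitals within 30 bases of the plus strand.
Gcat start, chr15:78861294-78861323: ccctgcccacgtCACGTGacggggagcact
TGATGNAA, the core of the amino acid response element bound by ATF4, was in 0 of the 11 windows and in 3.97% of all windows. ATGCAAAT, the octamer bound by OCT4, was in 0 of the 11 windows and in 1.74% of all windows. These letters describe the windows only, and no binding was measured.

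Expression values were FPKM, fragment numbers divided by transcript length and by the mapped fragments of the library, so levels of different genes are on a per-length scale. Differences are on the scale of log2(FPKM + 1), a gene was counted as higher or lower from a 2-fold difference on that scale, and folds are ratios of the FPKM values. With 1 library per condition there was no replicate spread, no test and no p-value, and each difference is that between 2 libraries. All 10 members were among the 14178 genes kept, those with at least 1 FPKM in at least 1 library, and their lowest value was 1.45 FPKM. The estimation interval deposited with each value had a median half-width of 99.4% of the FPKM over the 120 member values, and for no member and no pair of libraries did the intervals lie apart. Depth relative to D0 lay between 0.967 in D9T+ and 1.56 in D6T-.

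The libraries held the markers of their labels. The summed level of 12 fibroblast markers was 8183 FPKM in D0, 57.8 in D16S+, 729 in D16S-, 59.4 in iPSCs and 58.0 in mESCs. The summed level of 11 pluripotency markers was 2.27 FPKM in D0, 4992 in D16S+, 146 in D16S-, 3748 in iPSCs and 4234 in mESCs. Among markers of other cells, the leukocyte genes Ptprc and Emr1 reached at most 0.425 and 0.192 FPKM in any library, and the endothelial gene Emcn at most 0.253. Others of those lists were higher, with Cd68 at 115 and Laptm5 at 57.3 FPKM in D16S- and Pecam1 at 61.1 in mESCs, and their part in the results was not tested. The epithelial list summed to 63.8 FPKM in D0, 1212 in D16S+, 1646 in D16S-, 1824 in iPSCs and 364 in mESCs. Krt8 and Krt18 were its highest genes in D16S-, at 543 and 664 FPKM, and in iPSCs, at 483 and 711. In mESCs they were at 26.7 and 36.5 FPKM. In bulk RNA a larger share of cells with a transcript and more of it per cell cannot be told apart.

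The members divided by how far their levels moved. Phgdh, Psat1, Psph and Shmt2 differed by 2.03- to 2.69-fold between their highest and lowest library, and in no library of the successful route was any of them 2-fold away from D0. Mthfd1l and Mthfd2 spanned 3.21- and 3.25-fold. Mthfd1 spanned 5.30-fold, Gcat 6.61-fold and Shmt1 7.74-fold, and Gldc spanned 124-fold. For Mthfd1l, Mthfd2, Shmt1, Mthfd1, Gldc and Gcat the highest library was iPSCs or mESCs.

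**Figure D1:**
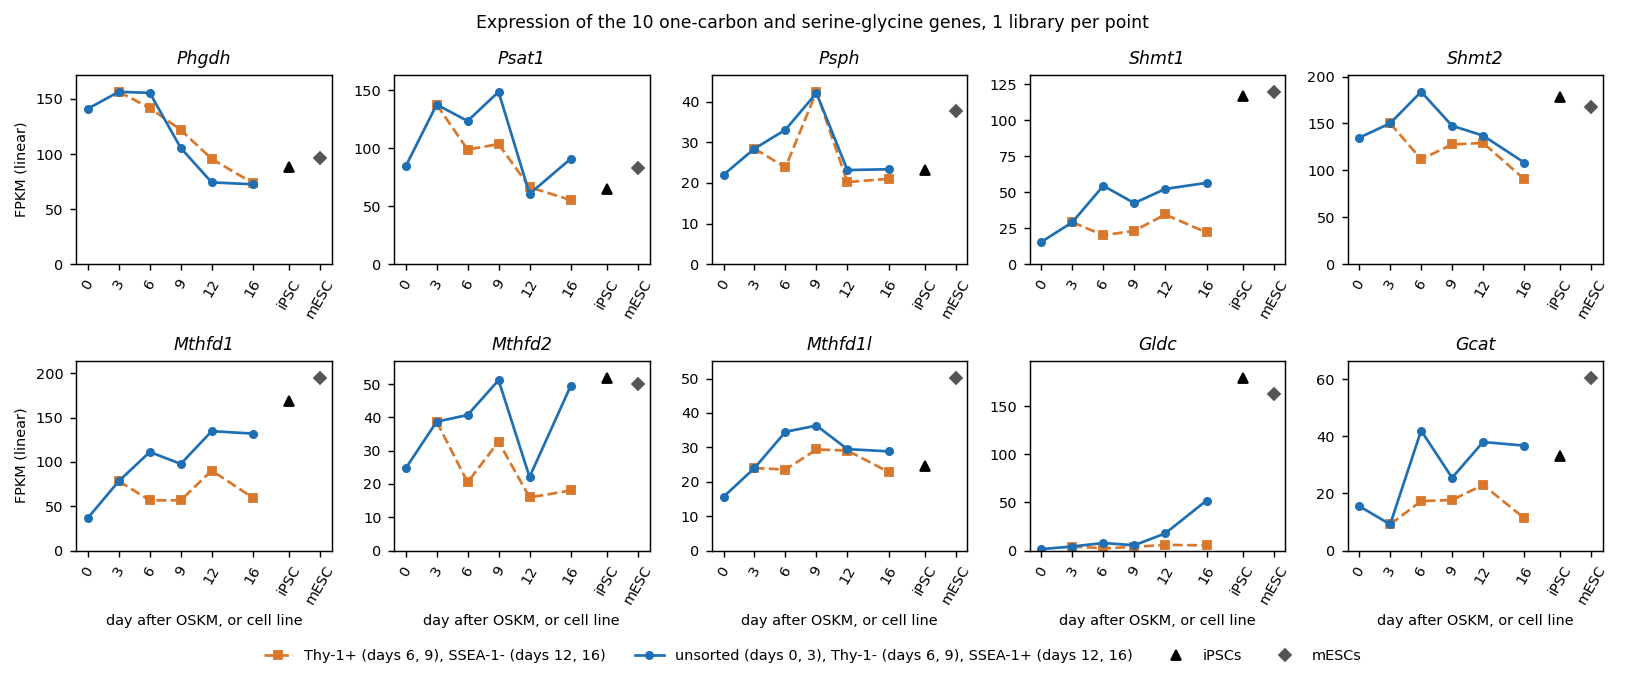
FPKM (linear axis, from 0, scaled separately for each gene) of the 10 members against day after OSKM, with iPSCs and mESCs at the right, 1 library per point. Blue circles join D0, D3 and the Thy-1- or SSEA-1+ fractions, orange squares join D3 and the Thy-1+ or SSEA-1- fractions; Gldc goes from 1.45 FPKM in D0 to 179 in iPSCs while Phgdh stays between 72.5 and 156 FPKM.

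Positions of the genes below are those of GENCODE M1 on mm9. Phgdh (chr3:98117093-98143913, minus strand) encodes the first and committed enzyme of serine synthesis. Its level was 141 FPKM in D0, 156 in D3, 155 in D6T-, 142 in D6T+, 105 in D9T-, 122 in D9T+, 74.3 in D12S+, 95.5 in D12S-, 72.5 in D16S+, 73.6 in D16S-, 88.0 in iPSCs and 96.2 in mESCs. Levels were thus highest in the libraries up to day 6 and lowest on day 16, in both fractions alike: the log2 difference from D0 was -0.95 in D16S+ and -0.93 in D16S-, and that between the fractions was -0.02, which became 0.09 when libraries were scaled to the same total FPKM. Of the 32-base words of the Phgdh transcript, 81.8% occurred at 2 or more places in mm9. Reads that mapped to more than 1 place were removed before the values were made, so the level of Phgdh relative to other genes is uncertain. In the other members this share was between 0 and 4.76%, and no pair of members shared such a word.

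Psat1 (chr19:15979168-16021827, minus strand) encodes the aminotransferase of the next step. It stood at 84.4 FPKM in D0, 138 in D3, 124 in D6T-, 98.9 in D6T+, 149 in D9T-, 104 in D9T+, 60.6 in D12S+, 66.5 in D12S-, 91.1 in D16S+, 55.3 in D16S-, 65.0 in iPSCs and 82.6 in mESCs. The highest value was in D9T- and the lowest in D16S-, and D16S+ was 0.71 above D16S- on the log2 scale. In GENCODE M1, Psat1 shares 556 bases with the pseudogene Gm3329 on the other strand, which has no value here. Overlaps given here are of whole gene spans, and whether they fall in exons was not examined. Psph (chr5:130271434-130293129, minus strand) encodes the phosphatase that releases serine. It was at 22.0 FPKM in D0, 28.4 in D3, 33.1 in D6T-, 23.8 in D6T+, 42.1 in D9T-, 42.4 in D9T+, 23.2 in D12S+, 20.2 in D12S-, 23.4 in D16S+, 21.0 in D16S-, 23.1 in iPSCs and 37.6 in mESCs. Both day 9 fractions and mESCs were highest for Psph, and D0, day 12, day 16 and iPSCs lay within 20.2 to 23.4 FPKM. The 3 genes of serine synthesis together summed to 248 FPKM in D0, 323 in D3, 187 in D16S+, 149.9 in D16S- and 176 in iPSCs.

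Shmt2 (chr10:126954195-126959491, minus strand) encodes the mitochondrial serine hydroxymethyltransferase. Its level was 135 FPKM in D0, 150.2 in D3, 184 in D6T-, 112 in D6T+, 148 in D9T-, 128 in D9T+, 137 in D12S+, 129 in D12S-, 108 in D16S+, 90.6 in D16S-, 178 in iPSCs and 167 in mESCs. No successful-route library was 2-fold away from D0, and the log2 difference of D16S+ from D0 was -0.31, or 0.10 with libraries scaled to the same total. In GENCODE M1 the gene shares 14 bases with Ndufa4l2 on the other strand, a gene between 0.531 and 306 FPKM in these libraries. Reads from this overlap cannot be told apart without strand. The locus given with the deposited values starts further out, at 126951995, so the overlap in the annotation behind the values is not known.

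Shmt1 (chr11:60601606-60625220, minus strand) encodes the cytosolic enzyme of the same reaction. It stood at 15.5 FPKM in D0, 29.1 in D3, 54.5 in D6T-, 20.1 in D6T+, 42.4 in D9T-, 23.2 in D9T+, 52.3 in D12S+, 34.5 in D12S-, 56.5 in D16S+, 22.1 in D16S-, 117 in iPSCs and 120 in mESCs. The iPSCs and mESCs stood above all other libraries, and on each sorted day the fraction of the successful route was the higher one. The level in iPSCs was 7.56 times that in D0 and 2.07 times that in D16S+. The second of these lay close to the threshold, at 1.04 on the log2 scale, and at 0.87 with libraries scaled to the same total. Shmt1 shares 184 bases with Smcr8 on the other strand, which was between 4.09 and 11.0 FPKM. It also shares 126 bases with SNORA25, a small nucleolar RNA gene on the other strand with no value here.

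The ratio of the mitochondrial to the cytosolic enzyme differed between the libraries of the route. Shmt2 had 8.71 times the FPKM of Shmt1 in D0, 5.15 times in D3, 3.37 in D6T-, 3.48 in D9T-, 2.62 in D12S+, 1.92 in D16S+, 1.52 in iPSCs and 1.39 in mESCs. In the other fractions the ratio was 5.56 in D6T+, 5.50 in D9T+, 3.74 in D12S- and 4.11 in D16S-, each above that of the paired fraction. Shmt2 was above Shmt1 in all 12 libraries. These ratios are within a library and do not move with its scaling. The uncertain overlap of Shmt2 with Ndufa4l2 applies to them too.

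Mthfd1 (chr12:77356219-77420807, plus strand) encodes the cytosolic enzyme that carries 3 activities of folate interconversion. Its level was 36.7 FPKM in D0, 78.3 in D3, 111 in D6T-, 56.5 in D6T+, 97.7 in D9T-, 56.7 in D9T+, 135 in D12S+, 90.2 in D12S-, 132 in D16S+, 59.4 in D16S-, 169 in iPSCs and 195 in mESCs. It was already 2.13 times the D0 level in D3, the 4 fractions of the successful route lay above all 4 others, and iPSCs were at 4.61 times D0.

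Mthfd2 (chr6:83255685-83267600, minus strand) encodes the mitochondrial dehydrogenase and cyclohydrolase. It was at 24.7 FPKM in D0, 38.7 in D3, 40.7 in D6T-, 20.5 in D6T+, 51.2 in D9T-, 32.7 in D9T+, 22.1 in D12S+, 15.9 in D12S-, 49.5 in D16S+, 18.0 in D16S-, 51.8 in iPSCs and 50.0 in mESCs. The route was not even: D12S+ lay below D0, between D9T- and D16S+ at more than 2 times its level. D16S+ was 2.75 times D16S-. Mthfd1l (chr10:6179460-6373423, minus strand) encodes the mitochondrial enzyme that releases formate. It stood at 15.6 FPKM in D0, 24.0 in D3, 34.5 in D6T-, 23.5 in D6T+, 36.3 in D9T-, 29.4 in D9T+, 29.5 in D12S+, 29.1 in D12S-, 28.8 in D16S+, 22.8 in D16S-, 24.7 in iPSCs and 50.1 in mESCs. The mESCs had the highest level, and iPSCs were below them by 1.00 on the log2 scale, just inside the threshold. Mthfd1l shares 157 bases with a U1 small nuclear RNA gene and 444 with the pseudogene Gm16074. Both lie on its own strand and have no value here.

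The ratio of Mthfd2 to Mthfd1 was 0.672 in D0, 0.164 in D12S+, 0.177 in D12S-, 0.375 in D16S+, 0.303 in D16S- and 0.306 in iPSCs. That of Mthfd1l to Mthfd1 was 0.425 in D0, 0.219 in D12S+ and D16S+, 0.322 in D12S-, 0.384 in D16S- and 0.146 in iPSCs. Mthfd2 was relatively highest in D0 and lowest in both day 12 fractions, while Mthfd1l was relatively highest in D9T+, at 0.518, and lowest in iPSCs.

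**Figure D2:**
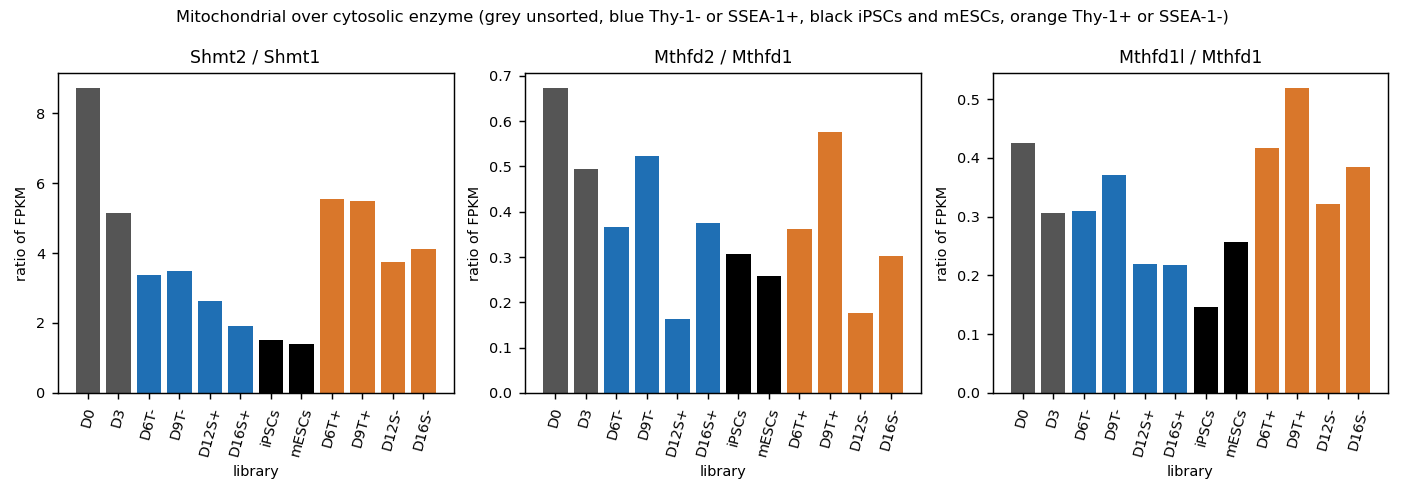
Ratio of FPKM, with no unit, of the mitochondrial to the cytosolic enzyme in each of the 12 libraries, as bars from 0, for Shmt2 over Shmt1, Mthfd2 over Mthfd1 and Mthfd1l over Mthfd1. The Shmt2 to Shmt1 ratio is 8.71 in D0 and 1.52 in iPSCs, and each orange bar (Thy-1+ or SSEA-1-) of this ratio is taller than the blue bar of its day.

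Gldc, the glycine decarboxylase (chr19:30172939-30249908, minus strand) had the widest range of the members. It stood at 1.45 FPKM in D0, 4.17 in D3, 7.79 in D6T-, 2.32 in D6T+, 5.47 in D9T-, 3.75 in D9T+, 17.8 in D12S+, 5.82 in D12S-, 52.0 in D16S+, 5.38 in D16S-, 179 in iPSCs and 163 in mESCs. D0 had the lowest level and each successful-route library was past 2-fold above it, with the main part of the range between D9T- and iPSCs. The annotation places the predicted gene Gm6635, which has no value here, across 378 of its bases on the other strand. D16S+ was 9.66 times D16S- and ranked 100 from the highest difference among the 14178 kept genes. The iPSC level was 124 times that of D0, a difference that ranked 33.

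The partners of GLDC in the glycine cleavage system differed among themselves, with Amt as wide in range as Gldc and Gcsh and Dld narrower. Amt, the aminomethyltransferase, was at 0.588 FPKM in D0, 0.811 in D3, 1.30 in D6T-, 5.86 in D9T-, 43.2 in D12S+, 68.9 in D16S+, 80.5 in iPSCs and 94.2 in mESCs, and at 0.838 in D6T+, 2.42 in D9T+, 5.40 in D12S- and 5.92 in D16S-. Amt was therefore lowest in D0, D3 and the day 6 libraries, and within 2-fold of its iPSC level in D12S+ and D16S+, while Gldc was at 17.8 FPKM in D12S+ and 179 in iPSCs. Gcsh, the lipoyl carrier, was at 20.7 FPKM in D0, 9.62 in D12S+, 27.4 in D16S+ and 31.8 in iPSCs, against 6.32 in D16S-. Dld, the dihydrolipoyl dehydrogenase that other mitochondrial complexes share, was between 8.87 and 18.6 FPKM in all 12 libraries and was not 2-fold apart in any of the 10 comparisons.

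Gcat, the glycine C-acetyltransferase (chr15:78861304-78873988, plus strand) stood at 15.5 FPKM in D0, 9.13 in D3, 42.0 in D6T-, 17.3 in D6T+, 25.5 in D9T-, 17.7 in D9T+, 38.0 in D12S+, 23.0 in D12S-, 36.7 in D16S+, 11.3 in D16S-, 33.0 in iPSCs and 60.3 in mESCs. The lowest library was D3, where every other member was above D0, and D6T- was already above the iPSC level. D16S+ was 3.25 times D16S-. Tdh, whose enzyme supplies the substrate of GCAT, was at 0.186 FPKM in D0, 2.06 in D3, 50.5 in D6T-, 85.2 in D9T-, 198 in D12S+, 157 in D16S+, 419 in iPSCs and 297 in mESCs, and at 8.79 in D6T+, 42.9 in D9T+, 57.8 in D12S- and 26.1 in D16S-. On the log2 scale Tdh was 8.47 higher in iPSCs than in D0, where Gcat was 1.04 higher. Both enzymes of the pair were past 2-fold higher in D6T- and in D16S+ than in the other fraction of the day.

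Early change was asked with D3 against D0. Of the 10 members, 9 were higher in D3 and 2 were past 2-fold, Mthfd1 by 1.07 and Gldc by 1.08 on the log2 scale, with 0 past 2-fold lower. Among all kept genes 5.76% were past 2-fold higher and 8.67% lower. The median of the members was 0.61 against -0.02 for all kept genes. Gcat was the exception at -0.71. With libraries scaled to the same total the median of all genes moved to 0.12 and that of the members to 0.86, and 3 members were past 2-fold, Shmt1 the added one at 1.12. The share of higher genes among all those past 2-fold was 39.9% as deposited and 56.5% so scaled. Myc, which one of the retroviruses carries, went from 27.3 FPKM in D0 to 378 in D3, and 10 of 11 kept fibroblast markers were past 2-fold lower. The part of either in these differences was not tested.

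On day 6, all 10 members were higher in D6T- than in D6T+. Gldc was 1.41, Shmt1 1.39 and Gcat 1.23 higher on the log2 scale, 3 members past 2-fold beside 2.93% of all kept genes, and 0 were past 2-fold lower beside 9.47%. Mthfd1 and Mthfd2 lay just under the threshold at 0.96 each, and passed it at 1.03 and 1.02 when libraries were scaled to the same total. The member median was 0.83 against 0.00 over all kept genes. All 17 genes of the proliferation list (replication and mitosis genes) were also higher in D6T-, with a median of 0.68 and a summed level of 1090 FPKM against 636. Fibroblast markers summed to 593 against 3230 FPKM, and Thy1 itself, the gene of the sorting marker, was at 3.24 against 477 FPKM. The part of cell division and of remaining fibroblasts in the member differences was not tested.

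On day 9 the fractions were closer. No member was past 2-fold, with 0 higher and 0 lower, beside 1.81% higher and 6.45% lower of all kept genes. All but Phgdh at -0.21 and Psph at -0.01, 8 members in number, were higher in D9T-, and Psph changed sign to 0.10 with libraries scaled to the same total. The largest differences were those of Shmt1 at 0.84 and Mthfd1 at 0.77, and the median was 0.47 against 0.02 over all kept genes. The proliferation list summed to 778 FPKM in D9T- and 487 in D9T+.

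On day 12, 8 members were higher in D12S+ than in D12S-. Gldc, at 1.46 on the log2 scale, was the 1 member past 2-fold, beside 4.79% of all kept genes, and 0 were past 2-fold lower, beside 3.03%. Phgdh at -0.36 and Psat1 at -0.13 were lower in D12S+. The median was 0.32 against -0.01 over all kept genes. The proliferation list summed to 1220 FPKM in D12S+ and 660 in D12S-, with 8 of 17 genes past 2-fold higher.

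Of the 4 sorted days, day 16 had the largest member median. In D16S+, Gldc was 3.05, Gcat 1.62, Mthfd2 1.41, Shmt1 1.32 and Mthfd1 1.14 above D16S- on the log2 scale. These 5 members were past 2-fold higher beside 11.8% of all kept genes, and 0 were past 2-fold lower beside 15.2%. The median was 0.92 against -0.02. The remaining 5, the 3 genes of serine synthesis with Shmt2 and Mthfd1l, lay between -0.02 and 0.71. All 17 proliferation genes were higher in D16S+, 14 of them past 2-fold, with summed levels of 1474 against 406 FPKM, and all 11 kept pluripotency markers were past 2-fold higher. The part of cell division in the member differences was not tested.

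**Figure D3:**
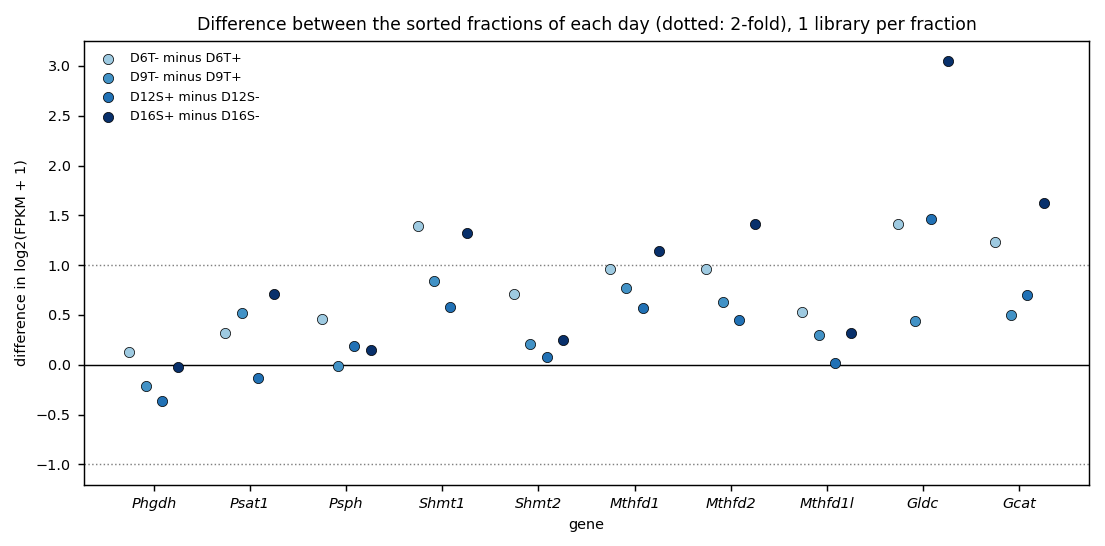
Difference in log2(FPKM + 1) between the sorted fractions of days 6, 9, 12 and 16 for each of the 10 members, 1 library per fraction, with dotted lines at 2-fold. Gldc reaches 3.05 on day 16, and Phgdh, Psat1, Psph, Shmt2 and Mthfd1l stay within the dotted lines on all 4 days.

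Against D0, the late fractions differed from each other. In D16S+, 4 members were past 2-fold higher, Gldc by 4.44, Mthfd1 by 1.82, Shmt1 by 1.80 and Gcat by 1.19, beside 20.0% of all kept genes, and 0 were lower beside 20.9%. In D16S-, Gldc alone was past 2-fold higher, by 1.38, beside 12.8% of all kept genes, and 0 were lower beside 11.4%. The member medians were 0.91 and -0.25 on the log2 scale, against 0.05 and 0.00 for all kept genes. The D16S- median turned to 0.04 with libraries scaled to the same total, a scaling that moved the median of all genes to 0.19. In D16S+ that scaling took the median of all genes to 0.35 and the members past 2-fold to 6, with Mthfd2 at 1.38 and Mthfd1l at 1.24. The share of higher genes among those past 2-fold went from 48.9% to 65.6% in D16S+ and from 52.9% to 68.2% in D16S-. The 2 comparisons share D0. All 17 proliferation genes were lower in D16S- than in D0, 6 of them past 2-fold.

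In iPSCs against D0, 5 members were past 2-fold higher: Gldc by 6.20, Shmt1 by 2.84, Mthfd1 by 2.17, and Mthfd2 and Gcat by 1.04 each. They stood beside 18.7% of all kept genes past 2-fold higher, and 0 members beside 21.6% lower. The member median was 0.83 against 0.03. Phgdh at -0.67 and Psat1 at -0.37 were lower in iPSCs. Scaling to the same total moved the median of all genes to 0.18 and that of the members to 1.06, with 5 members past 2-fold as before.

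From D16S+ to iPSCs, Gldc was 1.77 and Shmt1 1.04 higher, 2 members past 2-fold beside 4.38% of all kept genes, with 0 lower beside 7.77%. The remaining 8 lay between -0.48 for Psat1 and 0.71 for Shmt2. Scaled to the same total, the median of all genes moved from -0.01 to -0.14, Mthfd2 turned from 0.06 to -0.11, and Gldc was the 1 member still past 2-fold. The share of higher genes among those past 2-fold was 36.1% as deposited and 22.9% so scaled. In iPSCs against mESCs, 0 members were past 2-fold higher and 0 lower, beside 6.79% and 7.41% of all kept genes. After Mthfd1l, Gcat at -0.85 and Psph at -0.68 were the furthest below mESCs, and Gldc at 0.14 the furthest above. These comparisons share the iPSC library with that against D0.

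The genes around these enzymes were followed as lists. Of all kept genes, 11.8% were past 2-fold higher and 15.2% lower in D16S+ against D16S-. In iPSCs against D0 these shares were 18.7% and 21.6%. In D16S+ against D16S-, 3 of 8 partners of glycine cleavage and threonine breakdown were past 2-fold higher (Amt by 3.34, Tdh by 2.54 and Gcsh by 1.95) and Alas1, the first enzyme of haem synthesis, was past 2-fold lower, with a list median of -0.09. Of 8 kept other folate enzymes, Tyms, thymidylate synthase, was 1.99 higher, while Aldh1l2 was past 2-fold lower at -1.47 and the median was -0.04. Tyms went from 3.00 FPKM in D16S- to 14.9 in D16S+. In iPSCs against D0 Tyms was not past 2-fold, at 0.31, and 3 of the 8 were past 2-fold lower: Mthfd2l, Aldh1l1 and Aldh1l2. Mthfd2l, the paralog of Mthfd2, was at 2.63 FPKM in D0 and 0.120 in iPSCs.

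Purine synthesis consumes the formyl carbon that these enzymes supply. In D16S+ against D16S-, 5 of its 13 genes were past 2-fold higher, among them Prps1 by 1.80, Ppat by 1.24 and Paics by 1.13, and Adssl1, the muscle-type adenylosuccinate synthase, was 2.91 lower. In iPSCs against D0, 7 of 13 were past 2-fold higher and 0 lower, with a median of 1.21. Pfas led at 2.46, from 8.85 FPKM in D0 to 53.1 in iPSCs. In D3, Prps1 at 1.31 and Prps2 at 1.04 were past 2-fold. The shares of all kept genes past 2-fold higher and lower were 11.8% and 15.2% in D16S+ against D16S-. They were 18.7% and 21.6% in iPSCs against D0, and 5.76% and 8.67% in D3 against D0.

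Among 14 kept genes of serine, glycine and folate transport and handling, the direction differed between comparisons. In D3 against D0, 10 were higher and 4 lower, with a median of 0.45, and 3 were past 2-fold higher and 0 lower. Slc1a5, which carries neutral amino acids, was 1.15 higher there, Slc19a1, the reduced folate carrier, 1.14 and Sfxn1, the mitochondrial serine carrier, 1.05. The median was -0.29 in D16S+ against D16S-, where Folr1, a folate receptor, was 1.83 and Folr2 1.18 higher, and Sdsl, Slc6a9 and Slc19a1 were past 2-fold lower. Folr1 went from 0.729 FPKM in D0 to 136 in D16S+ and 266 in iPSCs, with 37.6 in D16S- and 78.4 in mESCs. In iPSCs against D0 the median of the list was -0.17, with Folr1 at 7.27 and Fpgs at 1.39 past 2-fold higher and Ggh and Srr past 2-fold lower. The shares of all kept genes past 2-fold higher and lower were 5.76% and 8.67% in D3 against D0. They were 11.8% and 15.2% in D16S+ against D16S-, and 18.7% and 21.6% in iPSCs against D0.

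**Figure D4:**
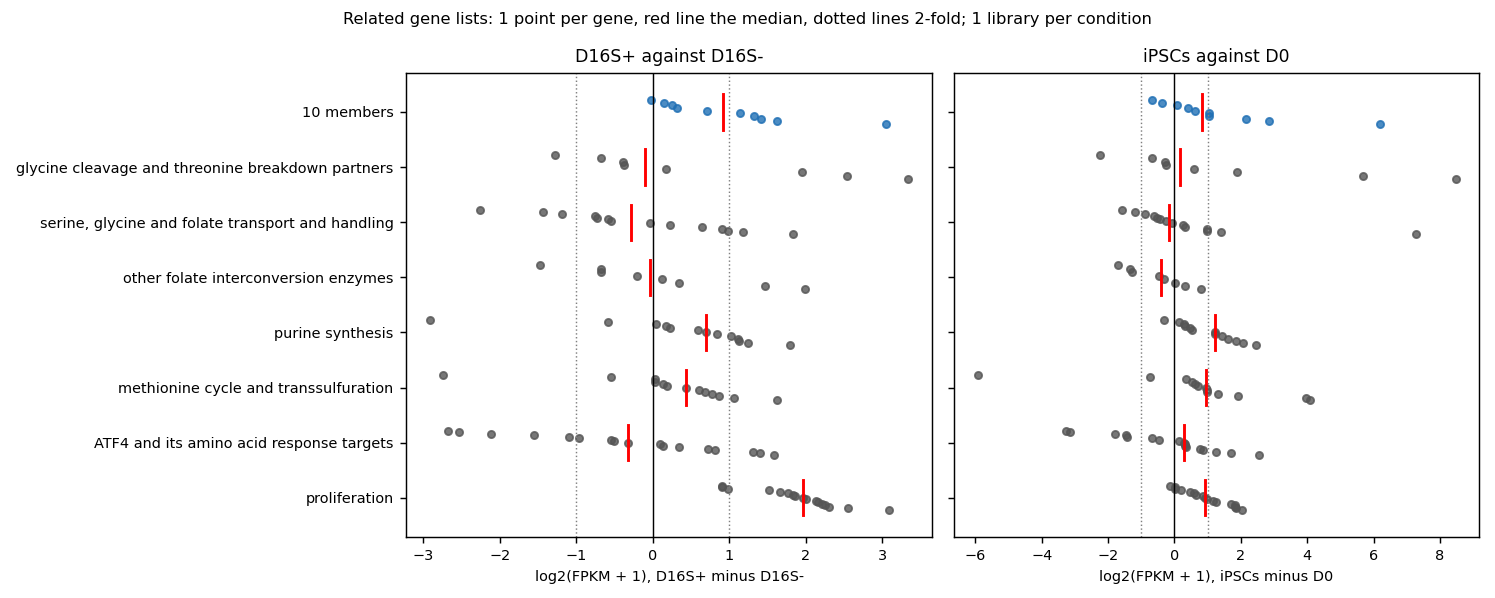
Difference in log2(FPKM + 1) of each kept gene, 1 point per gene, for the 10 members and the related lists, in D16S+ minus D16S- and in iPSCs minus D0, with red lines at the medians and dotted lines at 2-fold. The member median is 0.92 on the left and 0.83 on the right; the purine synthesis median is 0.70 and 1.21.

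The members did not vary as 1 block across the 12 libraries. Pearson's r of log2(FPKM + 1), given as a description since the libraries share 1 time course and its scaling, had a median of 0.47 over the 45 pairs, and 36 pairs were above 0. Shmt1 went with Mthfd1 at 0.97 and with Gldc at 0.93, and Mthfd1 with Gldc at 0.89. Phgdh and Psat1, at 0.69, and Psat1 and Psph, at 0.68, formed the other end, and Phgdh went against Gldc at -0.55. Of the 14168 other kept genes, those whose pattern was most like the mean of the members were Rpl15 at 0.953, Mrpl1 at 0.951, Sms at 0.941, Rps12 at 0.931 and Rpl6 at 0.930. The nearest single genes were Hsp90ab1 for Shmt1 at 0.987, Nat10 for Mthfd1 at 0.983, Dhx16 for Gldc at 0.982, Prep for Phgdh at 0.950, Slc7a5 for Mthfd2 at 0.948, Tbc1d22b for Mthfd1l and Gm20605 for Gcat at 0.942 each, Rpl36al for Shmt2 at 0.917, Glce for Psat1 at 0.901 and G0s2 for Psph at 0.853. Each is the largest of 14168 values over 12 libraries, so a high r by itself says little.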

How the data were processed

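The labels name a TruSeq Stranded mRNA library kit and the study's methods a TruSeq RNA kit. The strand setting of the quantification is not given in the sources used here, so reads of overlapping genes on opposite strands cannot be told apart. Reads were mapped to mm9 with STAR by the authors, who removed reads with more than 2 mismatches or more than 1 locus, which lowers genes with near-identical copies. The authors then computed FPKM per gene with cuffdiff, and the deposited values are these FPKM with their estimation intervals. Versions, annotation and library scaling are not given in the sources used here. A further 12 per-sample columns (status words) were not used.

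Each column was given to the sample with the same day and marker sign in its title. From the FPKM, log2(FPKM + 1) was computed for 14178 genes with at least 1 FPKM in at least 1 of 12 libraries. A pseudocount of 1 understates the differences of low genes. Differences were counted from 2-fold, in 10 comparisons, with no test since each condition had 1 library. Total fragments are unknown, and relative depth was read from the step between low values, among genes under 0.5 FPKM. The members and the 12 related lists (149 genes) were chosen with earlier results of these data known. Named beside the members were the genes past 2-fold of each list, at most the 3 largest per direction in D16S+ against D16S-, iPSCs against D0 and D3 against D0, with Tdh, Amt, Gcsh, Dld, Atf4, Tyms and Myc; the sums over marker lists and the defining markers are named besides. For likeness, the 5 genes with the highest Pearson's r to the mean of the members and the 1 highest for each member were named. Other pseudocounts, filters, fold thresholds and library scalings were tried. Transcripts were searched in mm9 for 32-base words at several places. One gene that this rule names is not reported here. The counting code was tested on simulated data. Python 3.11.15, numpy 2.4.6, pandas 2.3.3 and matplotlib 3.10.9 were used.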

Additional observations from a re-analysis of the deposited data

How the results depend on the processing

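No paired analysis was possible because each condition had 1 library, and for the same reason no replicate could be left out in turn. Of 590 recomputed values, 553 stayed within the margins (0.5 on the log2 scale for a median, 1.5-fold for a count), 36 moved and 1 changed sign. Many of the 553 were fixed in advance. Without the low-value filter nothing could move, since every member was kept and no gene under 1 FPKM throughout can reach 2-fold. The stricter filter of 5 FPKM kept every member too, so the member values were fixed there. Scaling by each library's median ratio to the geometric mean used factors of 1.0001 to 1.0151, so it could move little. Scaled to the same total FPKM, the member median of D16S- against D0 became 0.04, and the members past 2-fold higher became 5 in D6T- against D6T+ and 1 in iPSCs against D16S+, and 6 further member differences under 0.5 changed sign. With a pseudocount of 0.1, 1 member was past 2-fold lower in iPSCs against mESCs, and Gldc was higher by 5.07 in D16S+ and 6.86 in iPSCs against D0. The threshold sets the counts by construction. Shares of all kept genes at 4-fold and 1.5-fold were not computed, so the member counts that follow have no background beside them. At 4-fold, the members higher were 0 in D3 against D0, on day 6, on day 12, in D16S- against D0 and in iPSCs against D16S+, 1 on day 16 and in D16S+ against D0, and 3 in iPSCs against D0. At 1.5-fold, they were 6 higher and 1 lower in D3 against D0, 6 higher on day 6, 3 higher on day 9, 2 higher on day 12, 6 higher and 1 lower in D16S+ against D0, 2 higher and 2 lower in D16S- against D0, 6 higher and 1 lower in iPSCs against D0 and 0 higher and 3 lower in iPSCs against mESCs. Counts over all genes moved by more than 1.5 times in 13 cases. With the pseudocount of 0.1, genes higher went from 816 to 1539 in D3 against D0, 415 to 938 on day 6, 257 to 739 on day 9, 679 to 1280 on day 12, 1821 to 2870 in D16S- against D0, 621 to 1026 in iPSCs against D16S+ and 963 to 1662 in iPSCs against mESCs, and genes lower from 1342 to 2059 on day 6, 914 to 1494 on day 9, 429 to 1016 on day 12, 1101 to 2112 in iPSCs against D16S+ and 1050 to 1790 in iPSCs against mESCs. Scaled to the same total, genes lower in D16S- against D0 went from 1620 to 1075. Beyond what a threshold sets, the cause was not tested. The estimation interval, with a half-width about as large as the value itself, limits every member, and 59 of the 120 member intervals reached 0.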

Other observations

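The methionine cycle takes the carbon of folate, and transsulfuration joins serine to homocysteine. In D3 against D0, Cth at 2.31, Mtr at 1.55 and Cbs at 1.41 on the log2 scale were past 2-fold higher among 13 kept genes, and Nnmt was past 2-fold lower at -1.18. Cbs, which joins serine to homocysteine, went from 0.655 FPKM in D0 to 12.4 in D16S+ and 27.1 in iPSCs, with 3.38 in D16S-. Cth, the next enzyme, was at 2.98 FPKM in D0, 31.6 in D16S+, 19.2 in D16S- and 60.5 in iPSCs. Nnmt, a methyltransferase that uses up S-adenosylmethionine, was at 95.1 FPKM in D0, 1.92 in D16S+, 18.4 in D16S- and 0.578 in iPSCs. The list had 2 genes past 2-fold higher and 1 lower in D16S+ against D16S-, beside 11.8% and 15.2% of all kept genes. In iPSCs against D0 it had 4 and 1, beside 18.7% and 21.6%. The shares of all kept genes in D3 against D0 were 5.76% higher and 8.67% lower.

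ATF4, a transcription factor of the amino acid response, is known to act on several genes of serine synthesis. Atf4 itself was between 131 and 301 FPKM, and in iPSCs against D0 it was 0.35 higher on the log2 scale. Of the 17 genes of its list, 3 were past 2-fold higher and 5 lower in D16S+ against D16S-, with a median of -0.32. Of all kept genes, 11.8% were past 2-fold higher and 15.2% lower in that comparison. Asns at 1.59, Pycr1 at 1.40 and Slc7a5 at 1.31, which serve amino acid synthesis and uptake, were higher there. Slc7a11 at -2.68, Nupr1 at -2.53 and Cebpb at -2.12 were lower. Asns, asparagine synthetase, went from 15.2 FPKM in D0 to 72.9 in D16S+ and 93.8 in iPSCs, with 23.5 in D16S-.

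Myc was at 27.3 FPKM in D0, 378 in D3, 542 in D6T-, 202 in D6T+, 605 in D9T-, 432 in D9T+, 318 in D12S+, 627 in D12S-, 92.6 in D16S+, 599 in D16S-, 44.0 in iPSCs and 4.87 in mESCs. Retroviral and endogenous Myc reads cannot be told apart in these values. On the log2 scale Myc was 1.42 and 0.48 higher in the Thy-1- fraction on days 6 and 9, and -0.98 and -2.68 apart between the SSEA-1+ and SSEA-1- fractions on days 12 and 16. Its part in the member differences was not tested. Among markers of cells not meant to be present, 1 of 10 kept leukocyte genes was past 2-fold higher and 3 lower in D16S+ against D16S-. Of 7 kept endothelial genes, 2 were higher and 3 lower. These counts stood beside 11.8% higher and 15.2% lower among all kept genes. The summed levels of the leukocyte and endothelial lists lay between 25.7 and 203 FPKM and between 31.5 and 109 FPKM over the 12 libraries. Cd68, Laptm5, Eng and Pecam1, which other cells express too, were among the main contributors. In D0, Cd14 was at 9.79, Lyz2 at 9.47 and Cd68 at 9.05 FPKM, and Cdh5 at 11.8. In D16S-, Csf1r was at 19.9 FPKM, and Esam at 32.6 was above Eng at 24.5.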
